A study of Mus musculus with 6 samples.

Results

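The 10 genes described here encode the YAP and TAZ coactivators (Yap1, Wwtr1), the TEAD transcription factors that they bind (Tead1, Tead2, Tead3, Tead4), the LATS kinases (Lats1, Lats2) and 2 genes known as targets of YAP and TEAD (Amotl2, Ankrd1). They were chosen by name, and their accessible chromatin was mapped by ATAC-seq, in which the Tn5 transposase inserts adapters into open DNA. The 3 OB Fam20c f/f libraries came from an immortalized mouse osteoblast line with floxed alleles of Fam20c, the gene of a kinase that phosphorylates secreted proteins. The 3 OB Fam20c KO libraries came from the same line after infection with a Cre recombinase lentivirus, labelled as Fam20c knockout, and both groups were grown in α-MEM with fetal bovine serum. The deletion and the infection with Cre cannot be told apart in this design, and all 6 libraries go back to 1 immortalized line. It is not stated that the libraries of a group came from separate cultures, so each p-value measures only the spread between these libraries, which may be technical. The authors' peak lists of the 6 libraries were merged wherever peaks shared 1 bp, which gave 89410 regions. Of these, 95 overlapped the span of 1 of the 10 genes extended by 20 kb at either end, 61 of them within the span itself, 17 outside it but in the span of another gene and 17 outside every gene span.

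In the Hippo pathway, a cascade of kinases ends at LATS1 and LATS2, which phosphorylate YAP and TAZ and so keep them out of the nucleus. YAP and TAZ that escape phosphorylation enter the nucleus, where they bind TEAD factors and activate genes such as Ankrd1 and Amotl2. Lats2 and Amotl2 are at the same time targets and inhibitors of YAP, which gives the pathway a negative feedback. In bone-forming cells, the pathway is known for its response to the stiffness of the matrix and to mechanical load.

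TEAD factors recognise the letters GGAATG, or CATTCC on the other strand. RefSeq promoter windows of GRCm38.p6, which run from 250 bases before to 50 after a gene start, were searched for these letters on both strands. They were found at 6 of the 8 genes with such a window (Yap1, Wwtr1, Tead3, Lats2, Amotl2 and Ankrd1) and not at Tead2 or Lats1. Among all 27025 genes with a window, 4481 (16.6%) held them. Tead1 and Tead4 had no window. The letters TGACTCA or TGAGTCA, which AP-1 factors recognise, were found at 0 of the 8 genes and at 5.95% of all genes with a window. A match describes the letters of a window and is not evidence of binding. The stretches around TEAD letters that lie before the gene start are shown 5′ to 3′ on the strand of the gene, with the letters in capitals.
Yap1, chr9:8004702-8004767, minus strand: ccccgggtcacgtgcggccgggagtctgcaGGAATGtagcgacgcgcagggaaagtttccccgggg
Wwtr1, chr3:57576011-57576076, minus strand: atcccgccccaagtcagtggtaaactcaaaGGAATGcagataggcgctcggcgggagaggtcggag
Tead3, chr17:28350952-28351017, minus strand: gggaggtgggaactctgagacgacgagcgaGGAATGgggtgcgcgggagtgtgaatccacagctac
Amotl2, chr9:102717709-102717774, plus strand: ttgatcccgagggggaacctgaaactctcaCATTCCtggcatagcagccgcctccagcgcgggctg
Ankrd1, chr19:36119932-36120084, minus strand: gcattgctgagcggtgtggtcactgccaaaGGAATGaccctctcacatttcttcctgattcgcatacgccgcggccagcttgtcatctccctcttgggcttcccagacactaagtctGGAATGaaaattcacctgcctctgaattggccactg

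The f/f lists held 64033, 62781 and 74797 peaks and the KO lists 64141, 64582 and 32958. KO replicate 3 stood apart with the shortest list, so that results resting on it are given with and without it. Reads per library were not used here, and the length of a list need not follow the depth of its library. Of 6 osteoblast marker genes with a promoter window (among Runx2, Sp7, Alpl, Col1a1 and others), 4 had a peak there in 5 libraries and 3 in KO replicate 3. Of the markers of other cell types, 1 of 2 for blood cells had a promoter peak in every library, 0 or 1 of 2 for endothelium and 0 of 3 for epithelium. Fam20c itself had 6 regions, with a peak at its promoter in all 6 libraries and 1 region that was f/f-only, and neither tests the deletion.

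Between f/f and KO cells, the number of accessible regions at the 10 genes differed by less than the spread between the libraries. The f/f lists had a peak in 68, 69 and 75 of the 95 regions, and the KO lists in 75, 76 and 48. KO replicate 3 was the lowest, and the other 2 KO libraries were at or above the highest f/f library. The means were 70.7 ± 3.79 (SD, n = 3) in f/f and 66.3 ± 15.9 (SD, n = 3) in KO (two-sided exact permutation test, p = 1). With 3 libraries against 3 this test cannot go below 0.1. Without KO replicate 3 the difference was 4.83 regions towards KO (exact p = 0.3). With the same number of peaks taken from each list, it was 1.33 regions towards KO (exact p = 0.7).

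No region of the 10 genes was found in all 3 libraries of one group and in none of the other. The count was 0 for f/f-only regions, where 3.75% of all merged regions met the definition, and 0 for KO-only regions, where 0.179% did. Of the 95 regions, 44 (46.3%) had a peak in all 6 libraries, against 33.4% of all merged regions. A further 15 (15.8%) had a peak in every library but KO replicate 3, against 19.2% of all regions. Another 20 (21.1%) were found in 1 library, against 19.8%. The peaks of the 15 regions missing from KO replicate 3 alone were at the 8.09th to 66.8th percentile of the other lists by −log10 q, with a median of 36.8, as the map of peaks by gene and library shows. Without KO replicate 1 or KO replicate 2, 1 region counted as f/f-only, where 5.49% and 6.01% of all merged regions did.

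**Figure D1:**
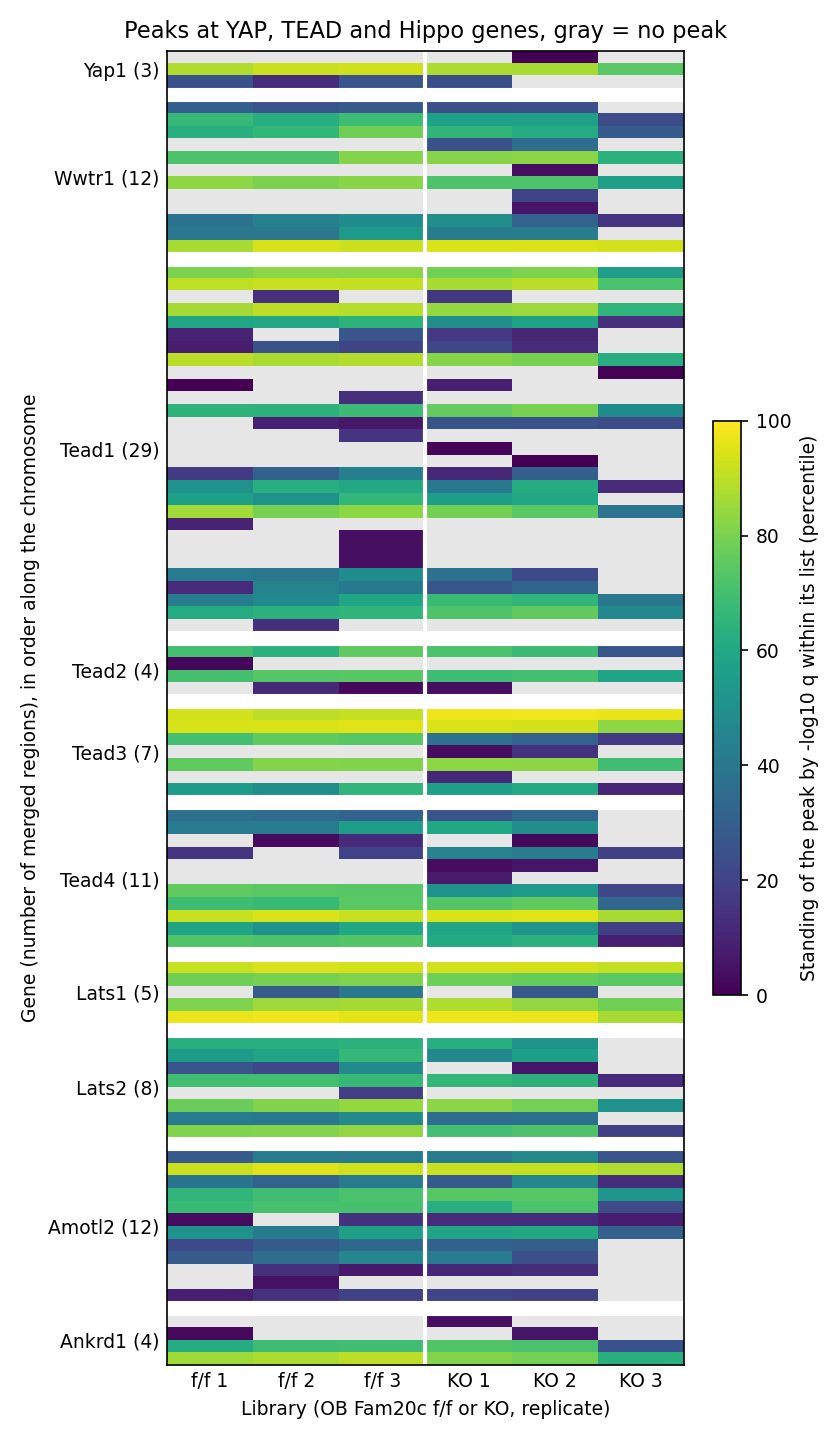
Each row is 1 of the 95 merged regions at the 10 genes, in order along the chromosome, and each column is a library, with f/f replicates 1 to 3 on the left and KO replicates 1 to 3 on the right. The colour gives the percentile of the peak by −log10 q within its own list, with 100 the highest, and gray means no peak. The KO replicate 3 column has peaks in 48 rows, against 68 to 76 in the others.

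Tead1, whose span of chr7:112679356-112906784 is the longest of the 10, had 29 regions. Wwtr1 and Amotl2 had 12 each, Tead4 11, Lats2 8, Tead3 7, Lats1 5, Tead2 and Ankrd1 4 and Yap1 3. Per 100 kb searched, the number ran from 2.66 at Yap1 to 21.3 at Amotl2, a gene of a scaffold protein of the angiomotin family that binds YAP. Yap1 was therefore the gene with the fewest regions on both scales. Beside its gene start and a region seen in KO replicate 2 alone, it had a region at chr9:8015494-8015851, outside its span, which all 3 f/f lists and that of KO replicate 1 held as a peak. The fold of that peak over the local background was 5.33, 3.28 and 4.67 in f/f and 4.86 in KO replicate 1, and the peak was missing from KO replicates 2 and 3.

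There were 3 regions (3.16%, against 2.72% of all regions) with a peak in KO replicates 1 and 2 and in no other library. They lay at Wwtr1 (chr3:57475191-57475407), Tead3 (chr17:28344205-28345256) and Tead4 (chr6:128275659-128275972), in each case within the gene span. The peaks were low ones. The fold over the local background was 3.84 and 4.62 at Wwtr1, 2.38 and 2.95 at Tead3 and 2.91 and 3.13 at Tead4 in KO replicates 1 and 2. If KO replicate 3 is left out, these 3 count as KO-only, a definition that 2.93% of all regions then met.

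To compare peaks that were present in every library, each was given a standing, its percentile from 0 to 100 among the 29849 regions shared by all 6 lists, once by −log10 q and once by the fold over the local background, both as the authors' peak caller wrote them. A standing has no unit of accessibility. It says whether a peak ranked higher or lower among the same peaks. The −log10 q grows with both the height of a peak and the depth of the library, while the fold is a ratio at the summit. By −log10 q, the median standing of the 44 shared regions of the 10 genes was 43.1 in f/f and 44.1 in KO, against 49.9 and 49.5 over all shared regions. The median of the differences per region, KO minus f/f, was -2.68 points, against -0.24 over all shared regions, so that the medians of the levels and of the differences had opposite signs.

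The regions at the gene starts were open in both groups. Those of Tead3, Lats1 and Lats2 also overlapped the spans of Tulp1, Pcmt1 and Gm52140, in that order. All 10 genes had a peak at their start, or at the end of the span for Tead1 and Tead4, in all 6 libraries. The median standing by −log10 q of these 10 regions was 72.1 in f/f and 72.2 in KO, and that of the other 34 shared regions was 36.3 and 31.9. By fold, the gene starts had a median of 47.0 in f/f and 51.6 in KO and the other regions 44.0 and 38.0. In the plot of standings at the gene starts, KO replicate 3 was the highest library by fold at Wwtr1, Tead2, Tead3, Tead4, Lats1 and Amotl2.

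**Figure D2:**
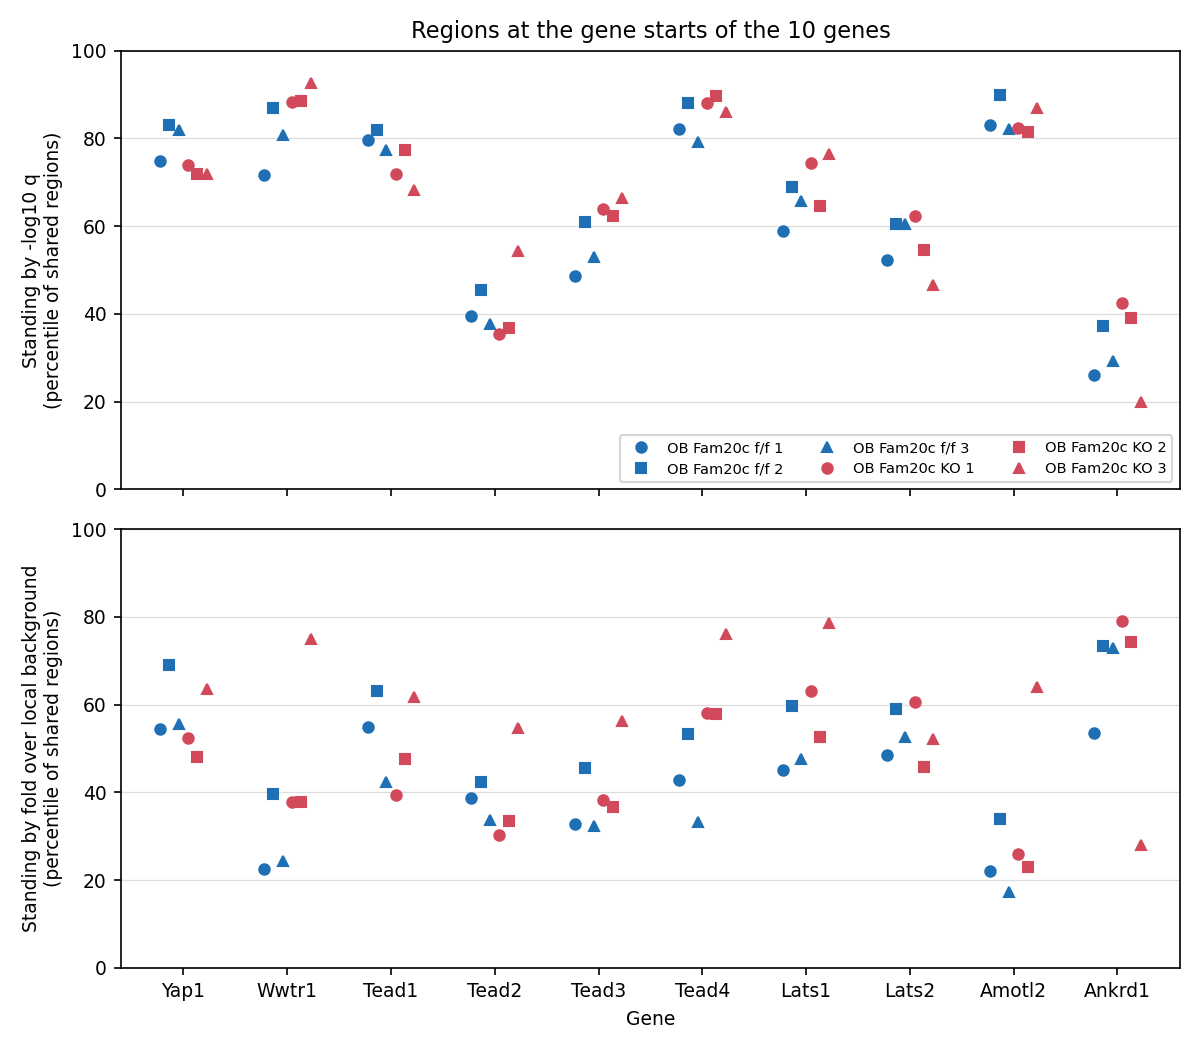
Standing of the gene-start region of each gene (y axis, percentile among the 29849 shared regions) by −log10 q in the upper panel and by fold over the local background in the lower one; each point is 1 library, blue for f/f and red for KO. Only the Wwtr1 start, with KO points from 88.2 to 92.6 and f/f points from 71.8 to 87.0 in the upper panel, passed the limma threshold.

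Of the coactivators, Wwtr1 ranked higher at its start in KO cells. The region chr3:57574171-57576814 stood at 71.8, 87.0 and 80.8 by −log10 q in the f/f libraries and at 88.2, 88.6 and 92.6 in the KO libraries. All KO libraries were above all f/f libraries, and the gap between KO replicate 1 and f/f replicate 2 was small. The difference of 9.97 points passed limma fitted over all shared regions (adjusted p = 0.0349) by −log10 q but not by fold (21.4 points, limma adjusted p = 0.266), where the standings were 22.4, 39.7 and 24.3 against 37.9, 37.8 and 75.0 and overlapped. By −log10 q the call was lost without f/f replicate 1 (limma adjusted p = 0.163), f/f replicate 3 (0.0988), KO replicate 2 (0.0648) or KO replicate 3 (0.0709), and in limma with neither trend nor robust (0.0861). The Yap1 start, chr9:8003087-8005135, stood at 74.8, 83.1 and 82.0 in f/f and at 74.0, 72.0 and 71.9 in KO. Here every KO library was below every f/f library, by less than 1 point for the nearest pair. The difference of -7.34 points did not pass (limma adjusted p = 0.126), except without f/f replicate 1 (limma adjusted p = 0.0484).

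Among the TEAD genes, the start regions of Tead1 and Tead4 ranked with those of the coactivators, and that of Tead2 was lower. Tead1 stood at 79.6, 82.0 and 77.3 in f/f and at 72.0, 77.4 and 68.4 in KO by −log10 q, with an overlap of the groups. Tead4 stood at 82.1, 88.1 and 79.3 against 88.2, 89.6 and 86.1, and Tead2 at 39.5, 45.4 and 37.7 against 35.4, 36.7 and 54.4. In both, the ranges of f/f and KO overlapped. Tead3 stood at 48.8, 60.9 and 53.0 in f/f and at 63.9, 62.3 and 66.4 in KO, and here all KO libraries were higher. None of the 4 passed the threshold by −log10 q, with limma adjusted p from 0.110 for Tead3 to 0.900 for Tead2, nor by fold.

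The kinase genes Lats1 and Lats2 had start regions of middle to high rank. Lats1 stood at 59.0, 69.0 and 65.9 in f/f and at 74.5, 64.7 and 76.4 in KO, and Lats2 at 52.2, 60.6 and 60.6 against 62.4, 54.6 and 46.5. The groups overlapped at both genes. Amotl2 had the highest mean f/f standing of the 10 starts, with 83.0, 89.8 and 82.1 in f/f and 82.3, 81.4 and 86.9 in KO. Ankrd1, a muscle ankyrin repeat protein gene and a commonly used readout of YAP activity, had the lowest, with 26.1, 37.2 and 29.2 in f/f and 42.5, 39.0 and 19.9 in KO. By fold the Ankrd1 start was in the upper part of the shared regions, at 53.6, 73.5 and 72.9 in f/f and 79.1, 74.3 and 28.0 in KO. KO replicates 1 and 2 were thus the highest and KO replicate 3 the lowest on both scales, and the Ankrd1 start did not pass the threshold on either (limma adjusted p = 0.812 by −log10 q and 0.825 by fold).

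The summit of the peak at the Yap1 start lay at position -138, in bases from the gene start, in all 6 libraries, 0.5 bp from the centre of the TEAD letters shown above. At Ankrd1 the summits lay at positions -235 to -195, 12.5 to 27.5 bp from the nearer of its 2 matches. They lay 34.5 to 68.5 bp from the letters at Amotl2, 20.5 to 107.5 bp at Wwtr1, 0.5 to 116.5 bp at Tead3 and 35.5 to 141.5 bp at Lats2. The letters were searched only in the promoter windows, and the summits are those of peaks over the same gene starts. Short distances were thus partly fixed by the search, and no distances were computed for other genes.

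At 3 of the 10 starts, all KO summits lay on one side of all f/f summits. At Tead3 the f/f summits were at positions -164, -180 and -164 and the KO summits at -63, -64 and -93, so that the f/f summits were nearer to the TEAD letters. At Tead2, the f/f summits were at positions 204, 163 and 204, after the start, and the KO summits at 34, 97 and 93. At Lats1 they were at 479, 512 and 512 in f/f and at 389, 320 and 368 in KO. The mean shift was 96.0 bases at Tead3, -116 at Tead2 and -142 at Lats1, counted along the gene from f/f to KO. Summits that lay apart in this way were found in 16% of all shared regions at a promoter window and in 13.1% of all shared regions, and in 11 of the 44 regions of the 10 genes. This comparison was chosen after the positions had been seen, and no test was made of it.

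**Figure D3:**
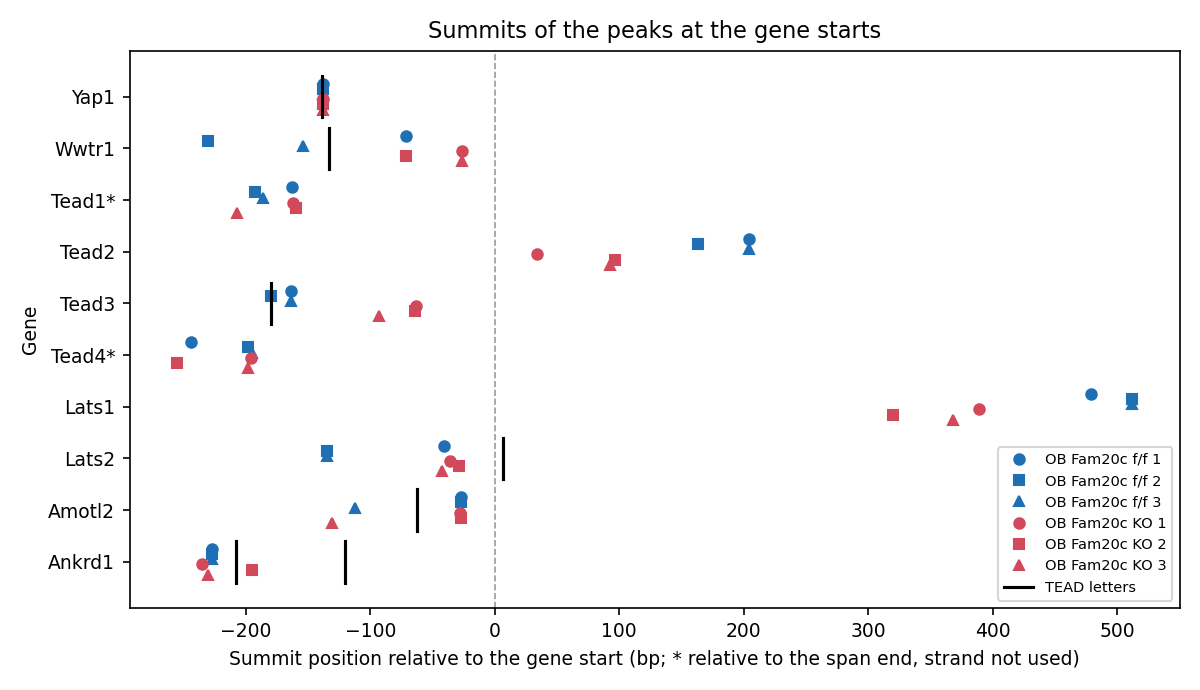
Position of the strongest summit of each library at the 10 genes (y axis), in bp from the gene start and negative before it (x axis). For Tead1 and Tead4, marked by an asterisk, positions count from a span end along the chromosome, because their strand was not used. The negative Tead4 positions therefore lie within its span. Blue points are f/f and red points KO libraries, and black bars mark the TEAD letters in the RefSeq promoter windows. The 6 Yap1 summits coincide at -138 bp on the letters, and the f/f and KO points separate at Tead2, Tead3 and Lats1.

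Over all shared regions of the 10 genes, gene starts included, calls were made in both directions. Shares over all shared regions are given beside the counts, and no test of the difference was made. By −log10 q, 6 of the 44 shared regions ranked higher in KO past the limma threshold, where 14.1% of all shared regions did, and 8 ranked lower, where 12.9% did. Away from the gene starts, 5 were higher and 8 lower of 34, and no share was computed over all shared regions away from gene starts. By fold, 0 ranked higher, where 1.65% did, and 1 lower, where 1.45% did. At an unadjusted limma p under 0.05, 9 were higher and 13 lower by −log10 q, and 4 higher and 7 lower by fold. In either direction these were 50% by −log10 q and 25% by fold, against 38.6% and 21.0% of all shared regions. The standings of f/f and KO did not overlap in 9 regions higher in KO and 12 lower by −log10 q (21.1% and 20.9% of all shared regions) and in 7 and 9 by fold (15.5% and 13.9%). With percentiles within the whole lists in place of the shared regions, these counts were 1 and 17 by −log10 q (3.62% and 25.5% of all shared regions) and 4 and 9 by fold (9.22% and 16.7%). On that scale limma called 1 region higher and 2 lower by −log10 q (at Tead3 and Lats2; 219 and 891 among all 29849) and 0 by fold. All other calls by −log10 q, and the call by fold, were lost on that scale, which the lists of lost calls given per region do not repeat. All 14 regions called by −log10 q had the same sign by fold, and 9 of the 14 did not overlap by fold. They belonged to 6 genes, Wwtr1, Tead1, Tead3, Tead4, Lats2 and Ankrd1, and 9 of the 14 lay within the span of their gene. Without KO replicate 3, 5 regions were higher and 7 lower by −log10 q of 59 tested (13.2% and 13% of all), and 2 and 2 by fold (5.4% and 5.69%). Calls over all tested regions also moved with the library left out, from 4201 and 3850 of 29849 with all 6. Without KO replicate 2 the counts by −log10 q were 2 and 5 (3039 and 2790 of all 29893 tested). Without f/f replicate 1 they were 4 and 6 (3586 and 2931 of 30015). Without f/f replicate 2 they were 6 and 5 (3123 and 2394 of 30044), and without f/f replicate 3 they were 4 and 5 (2830 and 2188 of 29955). By fold the count was 0 in both directions without any 1 library other than KO replicate 3. Over all tested regions it was then 0 to 229 higher and 0 to 233 lower.

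**Figure D4:**
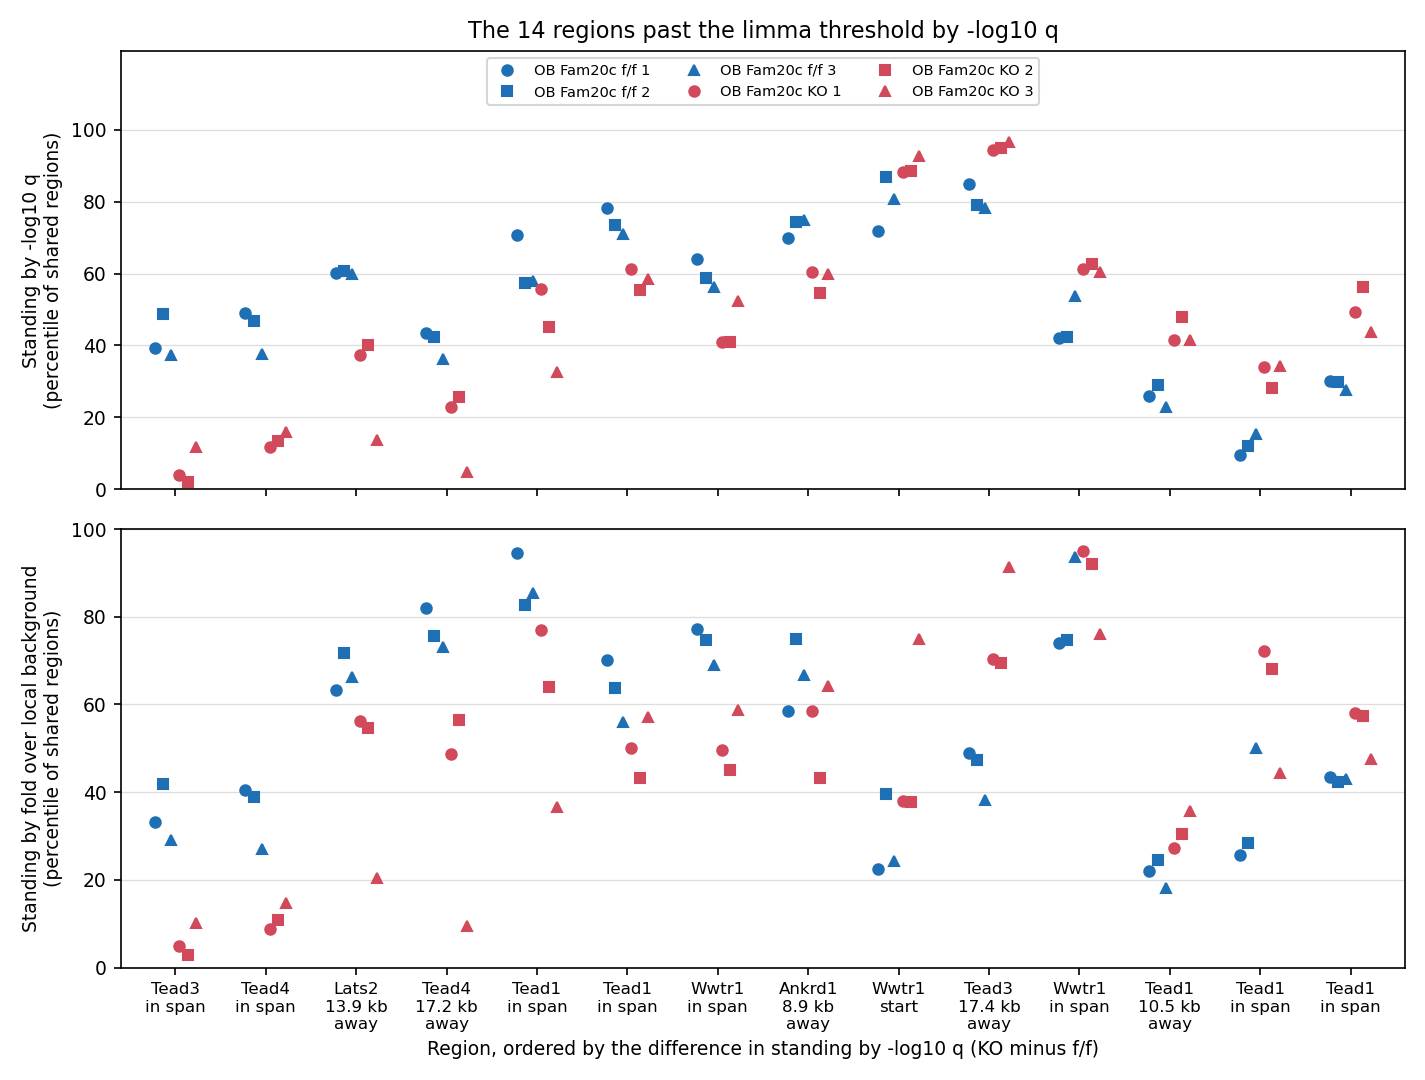
The 14 regions past the limma threshold by −log10 q, ordered from the most negative to the most positive difference, with their standing (y axis, percentile among the 29849 shared regions) by −log10 q above and by fold below; blue points are f/f and red points KO libraries. In the upper panel the groups separate in all 14 regions; in the lower panel they separate in 9.

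Tead3 had the region with the largest difference by −log10 q among the 44. By fold, 2 other regions described below differed more, 1 near Tead4 (-38.7 points) and 1 near Tead3 (32.3 points). The region with the largest difference by −log10 q lies within the span of Tead3 at chr17:28340540-28341701, away from the gene start. Its standing by −log10 q was 39.2, 48.8 and 37.3 in f/f and 4.0, 2.0 and 11.9 in KO, a difference of -35.8 points (limma adjusted p = 9.72e-05). All KO libraries were far below all f/f libraries. The fold over the local background was 8.38, 7.45 and 7.64 in f/f and 4.69, 4.12 and 3.44 in KO, and this was the 1 region called on both scales (by fold 33.2, 41.9 and 29.1 against 4.8, 2.8 and 10.2, limma adjusted p = 0.0239). The call by −log10 q held in all 11 alternatives. The call by fold was lost without f/f replicate 1 (limma adjusted p = 0.122), f/f replicate 2 (0.107), f/f replicate 3 (0.117), KO replicate 1 (0.0542) or KO replicate 2 (0.0643), and with the replicate number as a block (0.0726).

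The other Tead3 call went the opposite way. The region chr17:28312834-28314229 lies 17442 bp from the span of Tead3 and in the span of Fance, a gene of the Fanconi anaemia DNA repair pathway. It was high in every library, at 85.0, 79.2 and 78.3 by −log10 q in f/f, and higher still in KO, at 94.4, 95.0 and 96.6 (14.5 points, limma adjusted p = 0.000188, called in all 11 alternatives). By fold it stood at 48.8, 47.4 and 38.2 in f/f and at 70.4, 69.5 and 91.3 in KO, with all KO libraries above all f/f libraries. This difference of 32.3 points did not pass (limma adjusted p = 0.0762), except without KO replicate 3 (0.0394).

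Tead4 had 2 calls, both lower in KO. The region chr6:128282143-128282736, within the span, stood at 49.1, 46.7 and 37.6 by −log10 q in f/f and at 11.8, 13.4 and 15.8 in KO (-30.8 points, limma adjusted p = 0.000271). By fold it stood at 40.4, 38.9 and 27.1 in f/f and at 8.8, 10.8 and 14.8 in KO, so the groups did not overlap on this scale either. By fold the difference of -24.0 points did not pass (limma adjusted p = 0.0530), except without KO replicate 3 (0.0277) or with only peaks of a −log10 q of 5 or more (0.0342). The region chr6:128318031-128318789, 17218 bp outside the span and in no other gene, stood at 43.5, 42.3 and 36.2 in f/f and at 22.9, 25.8 and 4.9 in KO (limma adjusted p = 0.0126). KO replicate 3 was the lowest there, and the call was lost without f/f replicate 1 (limma adjusted p = 0.0639) or f/f replicate 2 (0.0603). By fold the region stood at 82.0, 75.6 and 73.0 in f/f and at 48.6, 56.5 and 9.4 in KO, with KO replicate 3 again far the lowest. This difference of -38.7 points did not pass (limma adjusted p = 0.0990). It passed in 0 of its 10 alternatives, which include the fit without KO replicate 3.

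Tead1 had 5 calls among its 10 shared regions, 3 higher and 2 lower in KO. The region chr7:112883749-112884494, near the far end of the span from the start region, stood at 9.6, 12.2 and 15.3 by −log10 q in f/f and at 34.1, 28.3 and 34.3 in KO (19.9 points, limma adjusted p = 0.00542). By fold it was called without KO replicate 3 (limma adjusted p = 0.00722) and not with it (0.157). The region chr7:112760434-112761282, also within the span, stood at 30.2, 29.8 and 27.6 in f/f and at 49.2, 56.2 and 43.7 in KO (20.5 points, limma adjusted p = 0.00687, lost without KO replicate 2 with 0.0551). The third, chr7:112917248-112918921, lies 10464 bp outside the span. It stood at 26.0, 29.0 and 22.9 in f/f and at 41.5, 47.8 and 41.6 in KO (limma adjusted p = 0.0161, lost without f/f replicate 3 with 0.0782 and without KO replicate 2 with 0.0830). By −log10 q, every KO library was above every f/f library in all 3 regions. By fold this held for the latter 2, while the groups overlapped at chr7:112883749-112884494.

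The 2 Tead1 regions that ranked lower in KO were of higher rank to begin with. The region chr7:112720069-112721119 stood at 78.1, 73.4 and 71.0 in f/f and at 61.4, 55.5 and 58.5 in KO (-15.7 points, limma adjusted p = 0.00722). The region chr7:112822829-112824244 stood at 70.8, 57.3 and 57.9 in f/f and at 55.6, 45.1 and 32.7 in KO (-17.5 points, limma adjusted p = 0.0299). In the latter the lowest f/f and the highest KO library were less than 2 points apart. Its call was lost without f/f replicate 1 (limma adjusted p = 0.156), f/f replicate 2 (0.0501), f/f replicate 3 (0.0580), KO replicate 2 (0.0685) or KO replicate 3 (0.108), and in limma with neither trend nor robust (0.0898).

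Wwtr1 had 2 further calls inside its span and in opposite directions. The region chr3:57487079-57488186 stood at 42.0, 42.5 and 53.7 by −log10 q in f/f and at 61.2, 62.8 and 60.4 in KO (15.4 points, limma adjusted p = 0.0220). The region chr3:57501387-57502295 stood at 64.0, 58.7 and 56.3 in f/f and at 40.9, 40.9 and 52.4 in KO (-14.9 points, limma adjusted p = 0.0311). Each depended on several libraries. The first call was lost without f/f replicate 1 (limma adjusted p = 0.0708), f/f replicate 2 (0.0837) or KO replicate 2 (0.0825), and in limma with neither trend nor robust (0.0508). The second was lost without f/f replicate 1 (limma adjusted p = 0.111), f/f replicate 2 (0.0728), f/f replicate 3 (0.0617), KO replicate 1 (0.0965) or KO replicate 2 (0.122), and in limma with neither trend nor robust (0.0655).

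At Lats2, a region 13910 bp outside the span at chr14:57760122-57761320 ranked lower in KO. Its standing by −log10 q was 60.1, 60.9 and 59.8 in f/f and 37.3, 40.2 and 13.7 in KO (-29.8 points, limma adjusted p = 0.00266). The 3 f/f libraries lay within about 1 point, whereas KO replicate 3 was far below the other 2 KO libraries. By fold it stood at 63.3, 71.7 and 66.2 in f/f and at 56.3, 54.5 and 20.5 in KO, again with every KO library below every f/f library, and did not pass (limma adjusted p = 0.220). The call by −log10 q held with each library left out, KO replicate 3 included, and was lost with only peaks of a −log10 q of 5 or more (limma adjusted p = 0.0829). At Ankrd1, a region 8887 bp outside the span at chr19:36128731-36130313 stood at 70.0, 74.4 and 74.9 in f/f and at 60.4, 54.6 and 60.0 in KO (-14.8 points, limma adjusted p = 0.0104). All KO libraries were lower there, while the gene start of Ankrd1 was not called. The call was lost without f/f replicate 3 (limma adjusted p = 0.0556) or KO replicate 2 (0.0630).

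Yap1, Tead2, Lats1 and Amotl2 had 0 calls by limma on either scale, among 1, 2, 4 and 6 shared regions. At an unadjusted limma p under 0.05, the counts by −log10 q were 1, 0, 0 and 2 in that order, and by fold 0, 0, 0 and 1. The differences in standing by −log10 q ran from -8.37 to 11.8 points at Amotl2, from -1.33 to 7.26 at Lats1 and from -4.35 to 1.31 at Tead2. The region with the highest mean f/f standing by −log10 q was at chr10:7725619-7726641 in the span of Katna1, a microtubule-severing protein gene next to Lats1, with 93.4, 95.1 and 89.6 in f/f and 95.0, 93.6 and 85.5 in KO. The groups overlapped there.

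**Figure D5:**
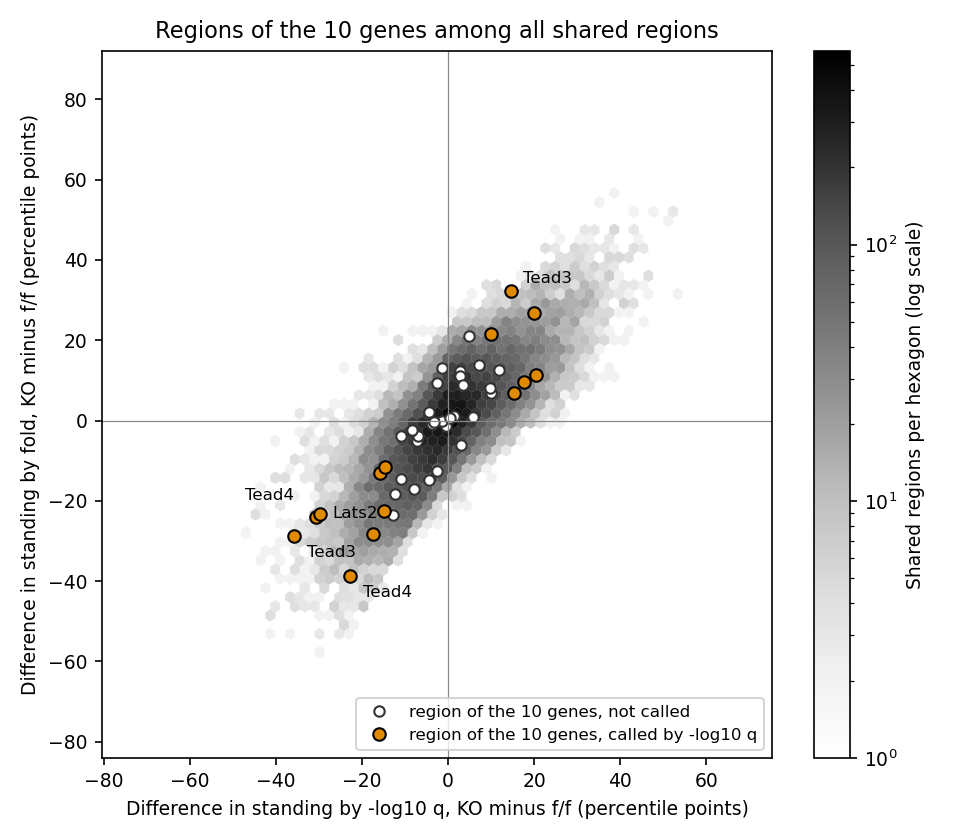
Difference in standing, KO minus f/f, by −log10 q (x axis) and by fold (y axis), both in percentile points; gray hexagons count all 29849 shared regions on a log scale, white points are regions of the 10 genes that were not called and orange points the 14 called by −log10 q. The called regions lie on both sides of 0, from -35.8 points at Tead3 to 20.5 points at Tead1 on the x axis.

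The surroundings of the 10 genes were close to balance between the groups. Over the shared regions within 2.5 Mb of each gene, the median difference in standing ran from -2.57 points near Tead3 to 3.48 points near Lats1 by −log10 q, and from -1.79 points near Yap1 to 3.36 points near Lats1 by fold.

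Other genes of the pathway were counted in the same way, on lists made with earlier results of these data known. The calls on these lists were made only with all 6 libraries and on the scale of the shared regions. No alternative was tried for them. With percentiles within the whole lists, calls by −log10 q over all shared regions fell from 4201 higher and 3850 lower to 219 and 891. The 14 genes of kinases and scaffolds upstream of LATS had 145 regions, of which 58 were shared. By −log10 q, 11 of the 58 ranked higher and 2 lower in KO by limma (19.0% and 3.45%, with 14.1% and 12.9% over all shared regions). By fold the counts were 2 and 0, where 1.65% and 1.45% of all shared regions passed. At an unadjusted limma p under 0.05 they were 8 and 2 by fold, a cut that 21.0% of all shared regions met in either direction. The median difference of the 58 regions was -0.02 points by −log10 q, against -0.24 over all shared regions. There were 6 f/f-only regions (1 each at Stk3, Stk4, Sav1, Nf2, Wwc1 and Taok3) and 0 KO-only, against 3.75% and 0.179% of all merged regions. Sav1, which encodes the scaffold of the MST kinases, had 1 shared region, at chr12:69985624-69987510. It stood at 35.3, 46.9 and 44.5 in f/f and at 68.0, 71.0 and 71.3 in KO, higher in all KO libraries (limma adjusted p = 0.000237 by −log10 q and 0.0306 by fold). Wwc1, the gene of the scaffold KIBRA, had 2 regions higher and 1 lower, and Taok3 3 higher. Stk3, the gene of MST2, had 1 higher, by only 0.63 points near the top of the ranks and not called by fold (limma adjusted p = 0.269). Nf2 had 1 lower, at 28.1, 31.1 and 40.0 by −log10 q in f/f and 6.9, 11.7 and 1.9 in KO. That difference of -26.2 points passed by −log10 q (limma adjusted p = 0.00108) and not by fold (0.0613).

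The 8 genes of YAP and TEAD partners and inhibitors had 100 regions, 53 of them shared. By −log10 q, 14 ranked higher and 3 lower in KO by limma (26.4% and 5.66%, with 14.1% and 12.9% over all shared regions). No alternative was tried for these calls either. By fold the counts were 0 and 0, where 1.65% and 1.45% of all shared regions passed. At an unadjusted limma p under 0.05 they were 6 and 0 by fold, a cut that 21.0% of all shared regions met in either direction. The median difference by −log10 q was 4.14 points. Amotl1, a relative of Amotl2 that holds YAP outside the nucleus, had 6 regions higher among 13 shared, Limd1 3 higher and 1 lower, Rassf1 1 higher and 2 lower, and Vgll4, the gene of a protein that competes with YAP for TEAD, 1 higher and 1 f/f-only region. The 18 further YAP target genes had 212 regions, 76 of them shared. By −log10 q, 10 ranked higher and 7 lower (13.2% and 9.21%, again with 14.1% and 12.9% over all shared regions). By fold the counts were 1 and 1, where 1.65% and 1.45% of all shared regions passed. At an unadjusted limma p under 0.05 they were 11 and 9 by fold, again with 21.0% of all shared regions in either direction. These 18 genes had 3 f/f-only regions (1 each at Crim1, Asap1 and Tgfb2) and 0 KO-only, against 3.75% and 0.179% of all merged regions. Their median difference by −log10 q was 1.02 points. Among these, Myof had 3 lower, Nuak2 2 higher and 1 lower, and Asap1 2 higher. Axl, a receptor tyrosine kinase gene, had 1 higher and 1 lower. Ccn1 and Ccn2, the best known YAP targets, had 0 limma calls on either scale and 0 regions in one group only. At an unadjusted limma p under 0.05, each had 1 region by −log10 q, and by fold Ccn2 had 1 and Ccn1 0.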

How the data were processed

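The labels gave the group and the replicate number of each library. Before deposit, the authors filtered reads with Trimmomatic, used BWA for alignment to mm10 and called the peaks of each library with MACS2 2.1.2 at a q-value threshold of 0.05, per the methods of the study. How duplicate reads were treated is not given in the sources used here. The deposited lists give for each peak a score for browsers (not used), the fold over the local background at the summit, the −log10 p (not used), the −log10 q and the summit. Because these values change with sequencing depth, groups were compared only by ranks within a list; fold values that are printed describe the peaks of their own list. A missing peak did not pass the authors' threshold, and is no measure of closed chromatin.

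Autosomal, X and Y peaks were merged where they shared 1 bp, and each region took the highest value of each library. Genes and promoter windows came from RefSeq, GRCm38.p6, whose coordinates are those of mm10. Gene spans were used without exons, so that no exonic or intronic position is given. Standings were turned into normal scores and fitted over all 29849 shared regions with limma 3.58.1 (R 4.3.3; eBayes with trend and robust), with Benjamini-Hochberg adjustment at 0.05. Every adjusted p in the text is limma's. Counts per library were compared by exact permutation tests over the 20 assignments of 3 of 6 libraries. Counts of reads were not used, so the authors' test on read counts was not repeated. The merging and the fit were tested on simulated lists. Calculations were run in Python 3.11.15, numpy 2.4.6, pandas 2.3.3 and scipy 1.17.1.

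The 10 genes, the other pathway lists, the markers and the tests were chosen with earlier results of these data known. Regions named by position are those at the gene start, those found in one group, those past the limma threshold, the highest of each gene, and up to 2 per gene with peaks in KO replicates 1 and 2 only; the region of Yap1 missing from KO replicates 2 and 3, and the summits, were chosen after their values were seen. In the other lists, up to 4 genes with the most calls are named, with those that had an f/f-only region, and Ccn1 and Ccn2, whose values were known when they were added. Alternatives tried were a −log10 q of 5 or more, equal numbers of peaks, windows of 501 bp around the summits, an overlap of 50%, a peak in at least 2 of 3 libraries, 3 kb or 50 kb around the genes, percentiles within the whole list, each library left out, the replicate number as a block, and eBayes with neither trend nor robust.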

Additional observations from a re-analysis of the deposited data

How the results depend on the processing

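The number of regions with a peak differed by -4.33 between KO and f/f, by 1.33 with equal numbers of peaks and by -8.67 to 4.83 with 1 library left out. There were 1 f/f-only and 1 KO-only regions with a −log10 q of 5 or more (3.55% and 0.118% of all merged regions). With a peak in 2 of 3 libraries, 3 were KO-only (2.98% of all), and within 50 kb, 2 were f/f-only (3.75%). With 1 library left out, 0 to 1 were f/f-only and 0 to 3 KO-only (3.82% to 6.13% and 0.218% to 2.93% of all). By −log10 q, limma called 1 region higher and 2 lower with percentiles within the whole list, 2 to 6 and 5 to 8 with 1 library left out, and 4 and 8 with neither trend nor robust. Over all tested regions these counts were 219 and 891, 2830 to 6200 and 2188 to 6114, and 3637 and 3081. By fold, it called 2 lower with a −log10 q of 5 or more, 0 within the whole list, 0 with the replicate block, and 0 to 2 in either direction with 1 library left out. Over all tested regions it called 220 lower with a −log10 q of 5 or more and 0 within the whole list. With the block it called 61 higher and 35 lower, and with 1 library left out 0 to 2537 and 0 to 2676. Standings did not overlap, in counts chosen after seeing the data, in 1 region higher and 17 lower in KO by −log10 q and 4 and 9 by fold within the whole list, and with 1 library left out in 9 to 15 and 12 to 16 by −log10 q and 7 to 15 and 9 to 11 by fold. With 1 library left out, the shares over all tested regions were 23.7% to 26.1% and 23.8% to 26.4% by −log10 q. By fold they were 17.8% to 22.4% and 16.7% to 20.2%. Where these counts moved with a library left out, the cause was not tested.

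For the 14 called regions and the 10 gene starts (1 is both), 504 values were recomputed; the other regions named by position were not. Of these, 429 kept their direction and their side of the threshold, 47 lost a call, 5 gained one and 23 changed sign, all of the 23 in gene-start regions that were not called before or after. On the scale of normal scores, those by −log10 q were -0.192 (Tead2), -0.0195 (Tead3), -0.0185 (Lats1) and -0.264 (Ankrd1) within the whole list and -0.00101 (Ankrd1) with a −log10 q of 5 or more, and by fold -0.130 (Tead2) and -0.0189 (Tead3) within the whole list and -0.0148 (Tead2) with a −log10 q of 5 or more. With 1 library left out, values by −log10 q ran from -0.0697 to 0.117 at Tead2, -0.183 to 0.0188 at Lats2, -0.131 to 0.0432 at Amotl2 and -0.0585 to 0.229 at Ankrd1, and by fold from -0.238 to 0.0306 at Tead1, -0.0648 to 0.145 at Tead2, -0.109 to 0.0780 at Lats2 and -0.407 to 0.282 at Ankrd1.

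No shared pattern was seen between same-numbered libraries, whose deviations correlated at 0.05, -0.12 and -0.14, against -0.15 to 0.18 for differently numbered ones. Whether same-numbered libraries were handled together is not stated, and these correlations cannot show it. With the number as a replicate block, limma called 6 regions higher and 8 lower by −log10 q, and the number of regions with a peak differed by -4.33 (exact sign-flip p = 1, smallest possible 0.25). The values are limited by the length of the lists, of which the shortest held 32958 peaks, and by 3 libraries per group.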
